A study of Homo sapiens with 6 samples.

Results

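The kinase cascade of the Hippo pathway was followed through 10 genes: the kinase genes STK3 and STK4 (MST2 and MST1), LATS1 and LATS2, the scaffold gene SAV1, the coactivator genes MOB1A and MOB1B, and the upstream regulators NF2, WWC1 and TAOK1. The rule lists them by name and uses no measured value, though the genes were chosen with earlier results of these data known. All 10 were found by gene ID among the 58735 genes of the deposited count table. By RNA sequencing, 3 libraries from HCT116 cells with SETD8 overexpression were set against 3 libraries from HCT116 cells with an empty vector (labelled Vector, genotype WT). SETD8, whose gene symbol is now KMT5A, is an enzyme that adds a methyl group to lysine. HCT116 is an established human colorectal carcinoma line. Per the labels, both groups received a lentiviral construct and were selected with puromycin as stable clones, while the design text speaks of transfected plasmids; neither source names the promoter of the construct or how many clones were used. Whether the replicates are separate cultures is not stated, and the p-values below therefore reflect only library-to-library spread, which may be technical. In such bulk libraries, fewer cells that express a gene and less of its RNA per cell cannot be told apart.

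In the Hippo pathway, the MST kinases, held by the scaffold SAV1, phosphorylate and activate the LATS kinases and their MOB1 coactivators, and LATS kinases in turn phosphorylate the transcriptional coactivators YAP and TAZ, which are then kept in the cytoplasm or degraded. NF2 (merlin) and WWC1 (KIBRA) act upstream at the cell cortex and help bring LATS to the membrane, and TAOK1 phosphorylates the MST kinases. In the intestinal epithelium the pathway is known for its control of regeneration and growth. The title of the series concerns methylation and loss of YAP protein, and the counts here show the messenger level of the cascade genes, kinases and others, that act before YAP.

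KMT5A stood at 65.4, 66.2 and 75.5 CPM (the count relative to the TMM-scaled library total) in SETD8 replicates 1, 2 and 3, against 46.0, 47.3 and 53.9 CPM in vector replicates 1, 2 and 3, so it was higher in the SETD8 libraries without overlap (log2 fold change 0.49, SE 0.10, adjusted p by edgeR 0.0156). With its annotated pseudogene copies added, the sum was 71.2, 71.3 and 80.4 CPM in SETD8 replicates 1, 2 and 3, against 48.5, 49.0 and 56.6 CPM in vector replicates 1, 2 and 3, again without overlap. Without vector replicate 2 or any one of the SETD8 replicates the KMT5A call did not hold (adjusted p by edgeR 0.0579 to 0.0965). Libraries held 17056672 to 18785454 counts in the SETD8 group and 17187722 to 20471843 in the vector group. Pairs of libraries differed by a chi-square per degree of freedom of 6.14 to 8.72 within the SETD8 group, 13.96 to 33.8 within the vector group, and 11.5 to 13.3 between vector replicate 1 and the SETD8 libraries, so vector replicate 1 lay closer to the SETD8 group than to its own. Mitochondrial transcripts took 4.91% to 5.36% of the counts in SETD8 libraries and 5.95% to 7.77% in vector libraries. The colon epithelial markers summed to 11654.5 to 13147 CPM in SETD8 and 11052 to 13600 CPM in vector libraries, with CDX1 at 0 counts and VIL1 at 0 to 4 counts. Most of the sum was KRT8, KRT18 and KRT19, with means of 6304, 1886 and 3457 CPM in SETD8 and 6697, 2212 and 3124 CPM in vector libraries. Of the 8 epithelial markers tested, CDH1 was called lower (log2 fold change -0.54, adjusted p by edgeR 0.0218) and CLDN4 higher (0.46, adjusted p by edgeR 0.0156), and their part in the results was not tested. Markers of fibroblasts, endothelium and immune cells summed to at most 4.83, 2.07 and 1.09 CPM in SETD8 and 7.32, 2.65 and 1.80 CPM in vector libraries, with COL1A2, DCN, PDGFRA, KDR, PTPRC, CD3E and CD3D at 0 counts.

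Among the cascade genes, NF2 fell and SAV1 rose with SETD8, and the LATS and MOB1 genes showed no change past the threshold. All 10 genes passed the low-count filter, with 357 to 4849 counts in SETD8 libraries and 334 to 5798 in vector libraries. Of the 10, 2 passed the test (edgeR quasi-likelihood, Benjamini-Hochberg adjusted p under 0.05 over 14370 genes), 1 lower and 1 higher, against 7.83% of all tested genes, 4.75% lower and 3.08% higher. The groups did not overlap in 5 of the 10 genes, against 30.3% of all tested genes. The median log2 fold change of the 10 was -0.055, and that of all tested genes was 0.00047. The median of the 10 moved with the setting, to -0.0013 with a length correction (all genes -0.0013), 0.0012 with block and length correction (all genes 0.0010), -0.12 without vector replicate 1 and 0.020 without vector replicate 3 (all genes 0.0038 in both), so it has no firm direction. The 10 genes ranged from -0.40 to 0.37 on the log2 scale. How many genes passed depended on single libraries over the whole table: 0.0747%, 1.06% and 0.873% of all genes were called without SETD8 replicate 1, 2 or 3, and 23.8%, 0.491% and 7.44% without vector replicate 1, 2 or 3. With all libraries, the share was 8.17% with DESeq2-type size factors, 9.03% with library totals, 7.29% (3.83% lower) with no low-count filter, 9.24% with a stricter filter, 12.7% by DESeq2, 7.59% by limma-voom, 8.19% with a replicate block, 8.68% with a length correction and 7.50% with block and length correction.

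**Figure D1:**
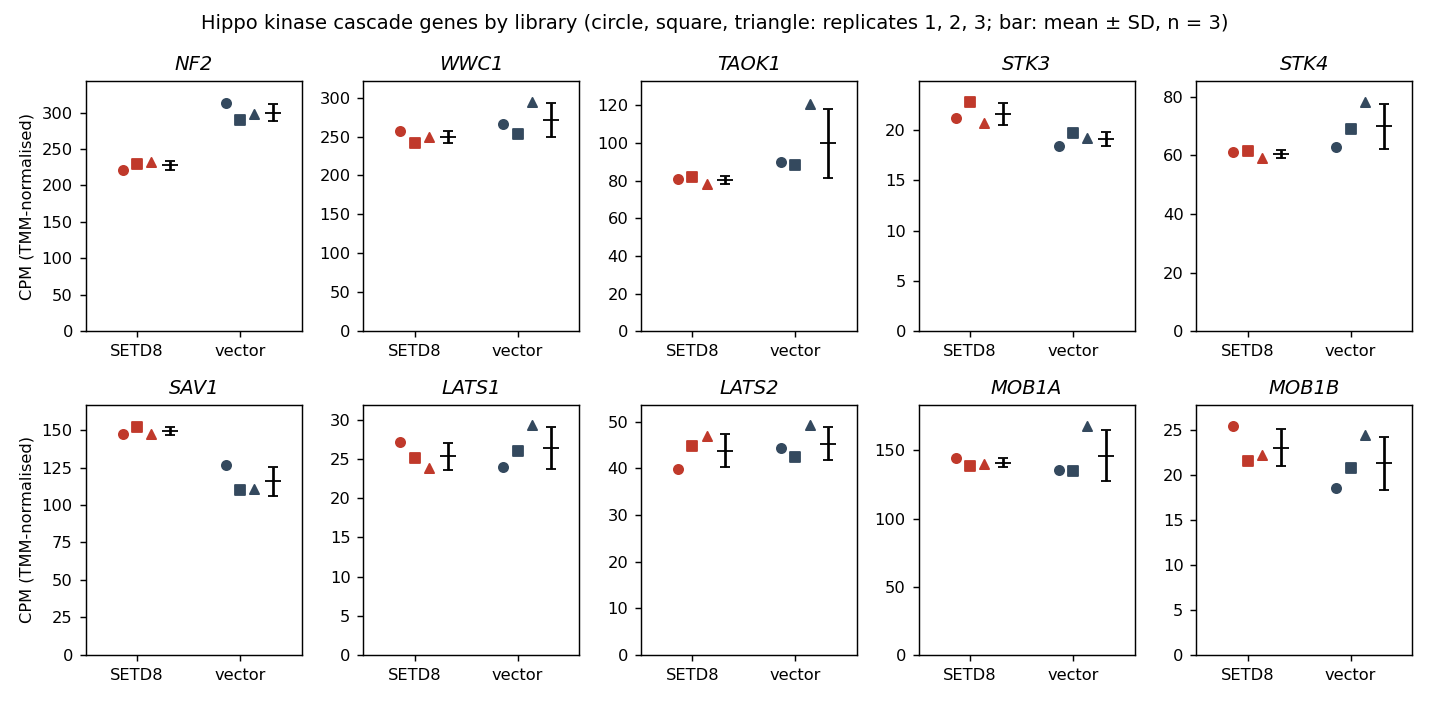
CPM (TMM-normalised) of each cascade gene in each library, with SETD8 libraries left of vector libraries, symbols for replicates 1, 2 and 3, and bars for the mean ± SD (n = 3). NF2 lies at 221 to 233 CPM in SETD8 libraries, below 289 to 313 CPM in vector libraries, and SAV1 lies above its vector libraries.

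NF2, which encodes the cortical tumour suppressor merlin, fell by 24.2%. It lies on chromosome 22 from 29603556 to 29698598 (GRCh38, ENSG00000186575). SETD8 replicates 1, 2 and 3 had 221, 229 and 233 CPM, against 313, 289 and 298 CPM in vector replicates 1, 2 and 3. Each SETD8 library was below each vector library, and the gap between the groups was wider than the spread within either. Means were 227 ± 6.08 CPM in SETD8 and 300.1 ± 12.1 CPM in vector libraries (SD, n = 3 each), a log2 fold change of -0.40 (SE 0.080, 95% interval -0.57 to -0.23, adjusted p by edgeR 0.0145). The change was -0.37 to -0.42 whichever library was left out, but NF2 missed the threshold with adjusted p by edgeR of 0.0723 when vector replicate 2 was dropped and 0.0994, 0.0690 and 0.0763 when SETD8 replicate 1, 2 or 3 was.

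SAV1, the scaffold that binds the MST kinases, rose by 28.8%. It lies on chromosome 14 from 50632058 to 50668331 (ENSG00000151748). SETD8 replicates 1, 2 and 3 had 148, 152 and 147 CPM, against 127, 110.1 and 111 CPM in vector replicates 1, 2 and 3. The SETD8 libraries were all higher, and vector replicate 1 was the vector library nearest to them. Means were 149 ± 2.70 CPM in SETD8 and 116 ± 9.46 CPM in vector libraries (SD, n = 3 each), a log2 fold change of 0.37 (SE 0.086, 95% interval 0.18 to 0.55, adjusted p by edgeR 0.0248). The change was 0.34 to 0.43 whichever library was left out, and SAV1 missed the threshold when vector replicate 2 was dropped (adjusted p by edgeR 0.129) and when SETD8 replicate 1, 2 or 3 was (0.111, 0.102 and 0.104). SAV1 shares 840 exonic bases with ATL1 on the opposite strand. ATL1 held 45 to 60 counts in SETD8 and 32 to 55 counts in vector libraries, against 2535 to 2941 and 1918 to 2324 for SAV1, and no source states whether reads were counted by strand.

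The promoters of NF2 and SAV1, shown because these were the called genes, are given as the 250 bases before a start site, with CpG dinucleotides in capitals (RefSeq, GRCh38.p14). The NF2 stretch, chr22:29603306-29603555 on the plus strand, held 16, and the SAV1 stretch, chr14:50668307-50668556 on the minus strand, held 33. Over 300-base windows that run 50 bases past the start, NF2 held 27 and 39 at its start sites and SAV1 held 39, against a median of 14 over all genes. This was not particular to the called genes. LATS1 held 38 and 3, STK4 35, TAOK1 30 and 32, WWC1 31, LATS2 29, MOB1A 27 and 29, and MOB1B 26.
NF2: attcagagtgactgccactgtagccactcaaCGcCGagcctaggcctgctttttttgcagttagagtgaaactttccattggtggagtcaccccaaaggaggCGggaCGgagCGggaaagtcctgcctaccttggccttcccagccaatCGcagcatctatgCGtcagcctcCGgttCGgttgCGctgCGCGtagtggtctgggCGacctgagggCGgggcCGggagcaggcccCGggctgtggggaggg
SAV1: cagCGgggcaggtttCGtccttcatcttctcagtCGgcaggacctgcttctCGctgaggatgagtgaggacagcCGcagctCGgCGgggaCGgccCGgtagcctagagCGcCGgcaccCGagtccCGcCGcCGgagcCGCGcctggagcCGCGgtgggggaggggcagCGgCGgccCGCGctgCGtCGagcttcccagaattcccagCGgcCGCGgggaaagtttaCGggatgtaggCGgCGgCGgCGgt

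Promoter windows of 300 bases, 250 before and 50 from the start site, were found for 9 of the 10 genes (all but STK3), 13 windows in all, and were searched on both strands for the TEAD motif GGAATG and the AP-1 motif TGANTCA. TEAD proteins are the DNA-binding partners of YAP, and LATS2 and NF2 are known as feedback targets of YAP. A TEAD match was found in LATS2 alone, 1 of the 9 genes, against 14.03% of 35116 windows of all genes. An AP-1 match was found in MOB1B and LATS1, 2 of the 9 genes, against 7.71% of all windows. LATS1 also had a window without a match. The cascade is counted by gene and the background by window, so these shares are not like for like. The 30 bases around the LATS2 match, chr13:21061560-21061589 on the minus strand, begin the motif 10 bases into the transcript, counting the start site as 1, with the motif in capitals.
LATS2: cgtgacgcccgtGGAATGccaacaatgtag

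Of the other upstream regulators, TAOK1 stood lower in every SETD8 library and missed the threshold, and WWC1 overlapped between the groups. TAOK1, a kinase that activates the MST kinases, had 80.8, 82.0 and 78.1 CPM in SETD8 replicates 1, 2 and 3, against 90.1, 88.2 and 120.8 CPM in vector replicates 1, 2 and 3. Vector replicate 3 stood far above the other vector libraries. The log2 fold change was -0.31 (SE 0.11, 95% interval -0.56 to -0.064, adjusted p by edgeR 0.108), and -0.15 without vector replicate 3. TAOK1 passed the test without vector replicate 1 (-0.38, adjusted p by edgeR 0.0134) and with no low-count filter (-0.31, adjusted p by edgeR 0.0406). WWC1, which encodes the LATS-binding protein KIBRA, averaged 249.4 ± 7.58 CPM in SETD8 and 271 ± 21.5 CPM in vector libraries (SD, n = 3 each), a log2 fold change of -0.12 (95% interval -0.31 to 0.064, adjusted p by edgeR 0.395), which was -0.054 without vector replicate 3 and 0.0030 with a length correction.

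**Figure D2:**
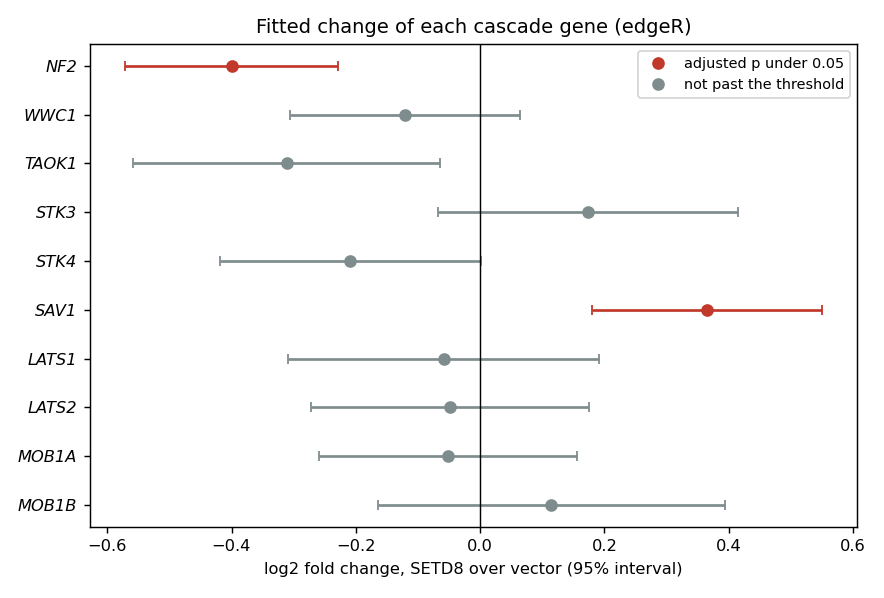
Fitted log2 fold change of each cascade gene, SETD8 over vector, with its 95% interval from the edgeR fit and genes past the threshold in red. The intervals of NF2 (-0.57 to -0.23), TAOK1 (-0.56 to -0.064) and SAV1 (0.18 to 0.55) lie off 0, and TAOK1 is not past the threshold once adjusted over all genes.

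The MST kinase genes stood apart in opposite directions without passing the test. STK4 (MST1) had 61.1, 61.7 and 59.0 CPM in SETD8 replicates 1, 2 and 3, against 62.7, 69.2 and 78.1 CPM in vector replicates 1, 2 and 3. Its groups did not overlap, although vector replicate 1 lay just above the SETD8 libraries. The log2 fold change was -0.21 (SE 0.098, 95% interval -0.42 to 0.0018, adjusted p by edgeR 0.195), and without vector replicate 1 it was -0.28 and passed (adjusted p by edgeR 0.0315), while without vector replicate 3, its highest vector library, it was -0.12 (adjusted p by edgeR 0.467). STK3 (MST2) had 21.2, 22.8 and 20.8 CPM in SETD8 replicates 1, 2 and 3, against 18.4, 19.8 and 19.3 CPM in vector replicates 1, 2 and 3, with every SETD8 library above every vector library. The difference was 0.17 on the log2 scale (SE 0.11, 95% interval -0.068 to 0.42, adjusted p by edgeR 0.346).

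LATS1, LATS2, MOB1A and MOB1B overlapped between the groups. LATS1, a kinase of YAP, had 23.8 to 27.2 CPM in SETD8 and 23.9 to 29.3 CPM in vector libraries (log2 fold change -0.058, 95% interval -0.31 to 0.19, adjusted p by edgeR 0.790). LATS2, its paralog, had 39.8 to 46.9 CPM in SETD8 and 42.5 to 49.2 CPM in vector libraries (-0.048, -0.27 to 0.18, adjusted p by edgeR 0.807). MOB1A, the more abundant coactivator of LATS, had 138 to 144 CPM in SETD8 and 135 to 168 CPM in vector libraries (-0.051, -0.26 to 0.16, adjusted p by edgeR 0.774). MOB1B had 21.5 to 25.4 CPM in SETD8 and 18.6 to 24.4 CPM in vector libraries (0.11, -0.16 to 0.39, adjusted p by edgeR 0.611), and shares 199 exonic bases with DCK on the same strand, so its value is uncertain. Its log2 fold change was 0.024 without vector replicate 1, 0.040 without SETD8 replicate 1, 0.23 without vector replicate 3 and 0.22 with a length correction, none past the threshold. DCK held 355 to 460 counts in SETD8 and 251 to 339 counts in vector libraries. The directions of LATS1, LATS2 and MOB1A turned when vector replicate 3 was left out (log2 fold changes 0.023, 0.017 and 0.062), as did that of LATS2 without SETD8 replicate 1 (0.018).

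The spread between vector libraries was the larger in 8 of the 10 genes. Over the whole table, too, vector libraries differed more from each other (chi-square per degree of freedom 13.96 to 33.8, against 6.14 to 8.72 within SETD8). The share of all genes with the larger vector spread was not computed. The coefficient of variation of CPM was 1.81% to 8.94% in SETD8 and 3.52% to 18.4% in vector libraries, and STK3 and LATS2 were the genes with the larger spread in SETD8 libraries. Vector replicate 3 was the highest vector library in 7 of the 10 genes, and vector replicate 1 was so for NF2 and SAV1. For how many of all tested genes vector replicate 3 was the highest vector library was not computed, so this is not shown to be particular to the cascade. Genes with more exonic bases, joined over all annotated isoforms, stood lower in the SETD8 libraries over the whole table. The median log2 fold change was 0.15 in the shortest quartile of tested genes (up to 2839 exonic bases) and -0.12 in the longest (from 7226). The cascade genes had 5578 to 16980 exonic bases. With a length correction NF2 (-0.34, adjusted p by edgeR 0.0151) and SAV1 (0.39, adjusted p by edgeR 0.0113) kept their calls. TAOK1, the longest, stood at -0.11 and STK4 at -0.10 with that correction, while STK3 stood at 0.33, and none of these passed (adjusted p by edgeR 0.450, 0.467 and 0.0817).

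Per kilobase of exonic length, NF2 was the most abundant cascade transcript in both groups and STK3 the least. Levels in RPKM (CPM per kilobase) were 30.8 to 32.4 for NF2 in SETD8 and 40.4 to 43.7 in vector libraries. SAV1 stood second in SETD8 libraries at 26.2 to 27.0 RPKM, above WWC1 at 24.0 to 25.5 RPKM. In vector libraries WWC1 stood second at 25.1 to 29.3 RPKM, above SAV1 at 19.6 to 22.5 RPKM. The order of this pair therefore differed between the groups, while over all 6 libraries the ranges of WWC1, SAV1 and MOB1A (21.0 to 26.1 RPKM) overlapped. A second tier of LATS2 (7.14 to 8.82 RPKM over all libraries), STK4 (6.50 to 8.61) and TAOK1 (4.597 to 7.12) overlapped from neighbour to neighbour. LATS1 (2.75 to 3.39 RPKM), MOB1B (2.11 to 2.88) and STK3 (1.46 to 1.81) were lowest, and LATS1 and MOB1B overlapped. Exonic length here joins all annotated isoforms, so levels of genes with long alternative exons are understated.

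Each kinase tier and the MOB1 tier are served by paralogs, whose ratio within a library does not depend on scaling. Transcripts of the 10 genes shared no 50-base word with each other on either strand, so reads of that length differ between paralogs. MOB1A and MOB1B, the closest in protein sequence, differed at 132 of 651 coding bases (79.7% identity), with no identical run above 17 bases. Counts of the pair cover 6440 exonic bases of MOB1A and 8801 of MOB1B, so most of the counted sequence lies outside this coding stretch. The first 120 coding bases of each (GENCODE release 29) are shown with the 22 differing bases in capitals.
MOB1A: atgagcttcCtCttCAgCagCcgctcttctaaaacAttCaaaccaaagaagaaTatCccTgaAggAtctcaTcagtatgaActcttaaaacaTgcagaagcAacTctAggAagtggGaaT
MOB1B: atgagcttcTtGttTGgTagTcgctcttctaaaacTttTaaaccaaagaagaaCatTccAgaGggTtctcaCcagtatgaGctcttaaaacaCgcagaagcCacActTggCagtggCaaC
The annotated MOB1A pseudogenes MOB1AP1 and MOB1AP2 had 0 counts in every library. Of the 50-base words of SAV1, 18.4% also occur in transcripts of other genes, most of them in ATL1 (13.9%), and the share was 0% for LATS2 and 0.424% to 4.22% for the other genes.

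STK4 was more abundant than STK3 in every library, and the ratio stood lower in each SETD8 library than in any vector library. Per kilobase it was 4.001, 3.75 and 3.94 in SETD8 replicates 1, 2 and 3, against 4.73, 4.86 and 5.64 in vector replicates 1, 2 and 3. The groups did not overlap, and the mean log2 ratio of CPM was 1.49 ± 0.049 in SETD8 and 1.87 ± 0.14 in vector libraries (SD, n = 3 each; difference -0.38, two-sided exact permutation p = 0.1, adjusted over 3 pairs 0.15). This p is the smallest that 3 against 3 libraries allow. The MOB1B over MOB1A ratio was 0.129, 0.114 and 0.116 per kilobase in SETD8 replicates, against 0.1003, 0.113 and 0.107 in vector replicates, a difference of 0.16 in log2 ratio (exact permutation p = 0.1, adjusted 0.15). SETD8 replicate 2 and vector replicate 2 nearly met in that ratio. The LATS2 over LATS1 ratio was 2.27, 2.76 and 3.05 per kilobase in SETD8 replicates and 2.87, 2.53 and 2.60 in vector replicates, which overlapped (log2 difference 0.0072, exact permutation p = 1.0, adjusted 1.0). The summed level of STK3 and STK4 was 8.39 ± 0.230 RPKM in SETD8 and 9.23 ± 0.882 RPKM in vector libraries, that of LATS1 and LATS2 was 10.8 ± 0.453 RPKM in SETD8 and 11.2 ± 0.889 RPKM in vector libraries, and that of MOB1A and MOB1B was 24.5 ± 0.715 RPKM in SETD8 and 25.1 ± 3.23 RPKM in vector libraries (SD, n = 3 each). The sums differed by no more than the larger SD between replicates.

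**Figure D3:**
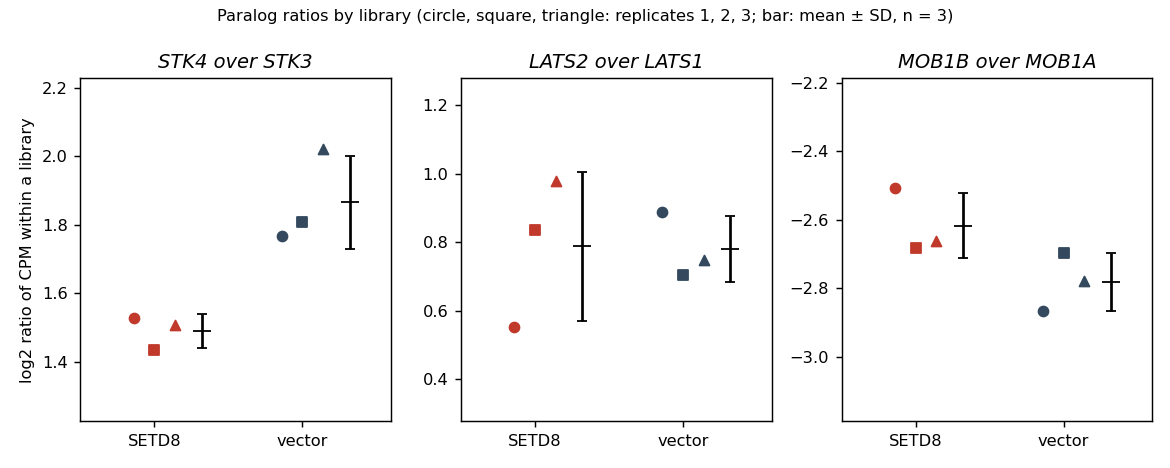
Log2 ratio of the CPM of the paralogs of each pair within each library, with SETD8 libraries left of vector libraries, symbols for replicates 1, 2 and 3, and bars for the mean ± SD (n = 3). The STK4 over STK3 ratio averages 1.49 in SETD8 and 1.87 in vector libraries without overlap, and the LATS2 over LATS1 ratio overlaps.

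Beyond the cascade itself, 58 further pathway genes were listed by role and all passed the low-count filter. Of these 58, 5 were called lower and 1 higher, against 4.75% lower and 3.08% higher of all tested genes, and no set test was run. Among 21 parallel and upstream activators, 3 were called lower and 1 higher, with a median log2 fold change of -0.055. WWC3, a relative of WWC1, averaged 21.9 ± 1.81 CPM in SETD8 and 32.5 ± 5.90 CPM in vector libraries (SD, n = 3 each; log2 fold change -0.57, SE 0.14, adjusted p by edgeR 0.0266). TNIK averaged 36.0 ± 0.956 CPM in SETD8 and 51.5 ± 9.32 CPM in vector libraries (-0.52, SE 0.13, adjusted p by edgeR 0.0275). TNIK and MAP4K2 belong to the kinase family that can phosphorylate LATS in place of the MST kinases. MAP4K2 averaged 55.4 ± 2.92 CPM in SETD8 and 70.4 ± 3.64 CPM in vector libraries (-0.34, SE 0.090, adjusted p by edgeR 0.0361). RASSF1, whose product binds the MST kinases, averaged 49.9 ± 1.23 CPM in SETD8 and 38.7 ± 4.25 CPM in vector libraries (0.36, SE 0.10, adjusted p by edgeR 0.0483).

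Of 26 inhibitors of the cascade, among them the subunits of the STRIPAK phosphatase complex that dephosphorylates MST kinases, the only gene called was ITCH, which encodes a ubiquitin ligase known to act on LATS1. ITCH averaged 74.4 ± 4.34 CPM in SETD8 and 103.9 ± 14.9 CPM in vector libraries (log2 fold change -0.48, SE 0.11, adjusted p by edgeR 0.0204), and the list had a median of -0.056. Among 7 effectors, the TAZ gene WWTR1 was the only one called, at 56.5 ± 5.66 CPM in SETD8 and 74.3 ± 10.3 CPM in vector libraries (-0.39, SE 0.11, adjusted p by edgeR 0.0497), and the median was 0.030. Set beside these single calls, 7.83% of all tested genes were called. With all libraries and TMM scaling, 0 of the 4 other MOB family genes passed in edgeR and 0 in limma-voom, and 1 had an unadjusted edgeR p under 0.05. In DESeq2, which used its own size factors, 1 passed. That gene, MOB2, a partner of the NDR kinases, averaged 22.2 ± 0.847 CPM in SETD8 and 16.8 ± 1.84 CPM in vector libraries (0.40, adjusted p by edgeR 0.0614, DESeq2 adjusted p = 0.0424). MOB2 also passed in edgeR with library totals (0.44, adjusted p by edgeR 0.0373) and without vector replicate 1 (0.47, adjusted p by edgeR 0.0128). MOB3A (-0.17), MOB3B (-0.11) and MOB3C (-0.11) did not pass (adjusted p by edgeR 0.265, 0.846 and 0.676). The groups of all 6 called pathway genes did not overlap, against 30.3% of all tested genes. Since the test on the same libraries chose these 6, their lack of overlap is a description only. Each of the 6 lost its call without vector replicate 2 and without any one of the SETD8 replicates (highest adjusted p by edgeR 0.172, 0.199, 0.177 and 0.171). Without vector replicate 3, RASSF1 and WWTR1 lost theirs (adjusted p by edgeR 0.0684 and 0.0820), and with a length correction MAP4K2 and WWTR1 did (0.0640 and 0.0632). With library totals MAP4K2 and WWTR1 also missed the threshold (adjusted p by edgeR 0.0534 and 0.0704), as did WWTR1 in limma-voom (adjusted p = 0.0549) and RASSF1 with a replicate block (adjusted p by edgeR 0.0532).

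**Figure D4:**
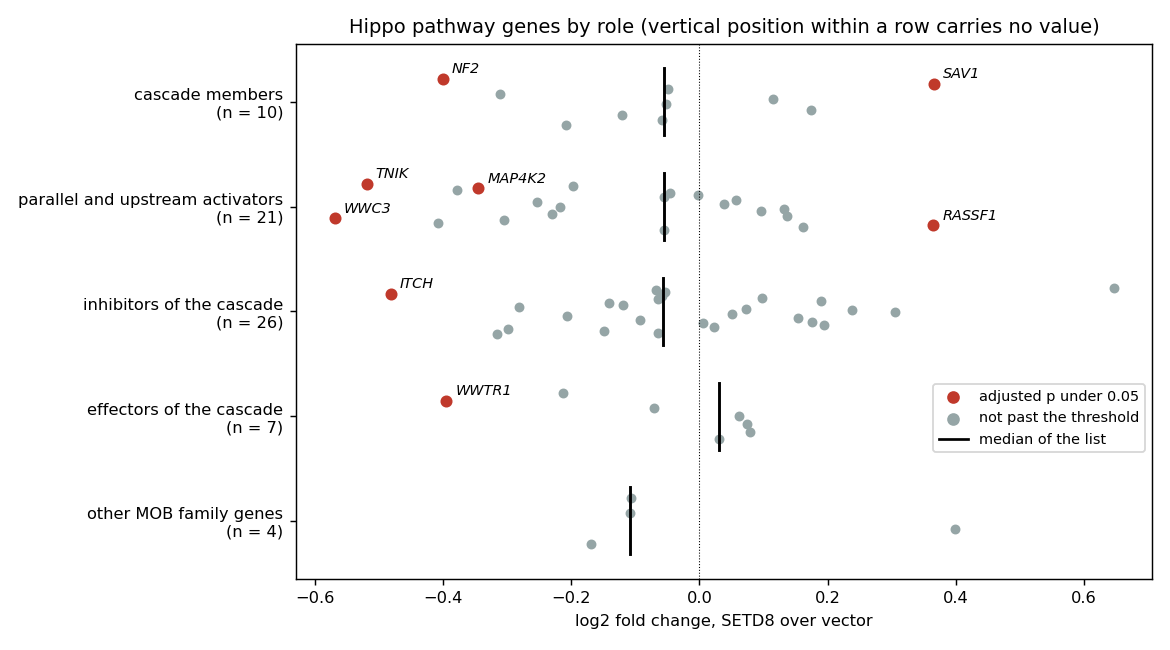
Log2 fold change, SETD8 over vector, of every listed pathway gene by role, with genes past the threshold in red and named, and the list median as a bar. List medians lie between -0.11 and 0.030, and 6 of the 8 called genes lie below 0. Over all tested genes, 682 of the 1125 called genes lie below 0.

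The genes whose profile over the 6 libraries was most like that of NF2 or SAV1 were found by the root mean square difference of centred log2 CPM among 7216 genes with a mean of at least 20 CPM. For NF2 they were PRSS12 (difference 0.017), DPYSL3 (0.032) and SLC12A8 (0.035), with log2 fold changes of -0.38, -0.35 and -0.39. For SAV1 they were CAPN10 (0.032), RPRD1A (0.034) and OTUD5 (0.034), with log2 fold changes of 0.34, 0.36 and 0.35. Since these genes were chosen for a profile like that of a called gene, their fold changes follow from the choice and are a description only.

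**Figure D5:**
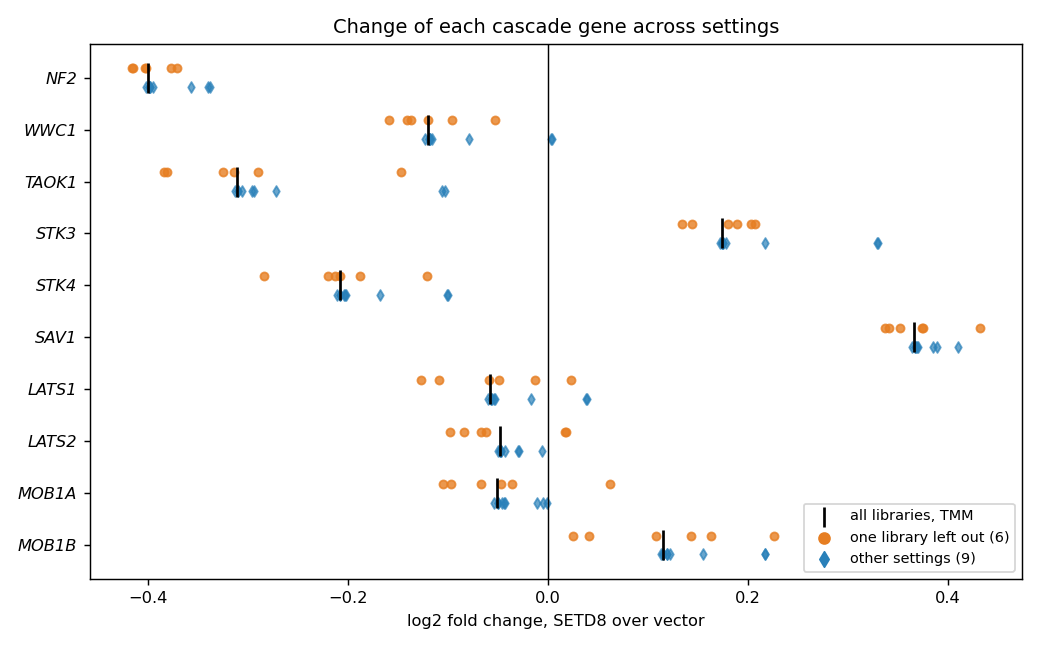
Log2 fold change of each cascade gene, SETD8 over vector, with all libraries and TMM scaling (bar), with each library left out (circles) and under the other 9 settings (diamonds). NF2 stays between -0.42 and -0.34 and SAV1 between 0.34 and 0.43, while LATS1, LATS2, MOB1A and WWC1 reach or cross 0.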

How the data were processed

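RNA of 3 SETD8 and 3 vector libraries was taken up in TRIzol, selected for poly(A) and sequenced from a kit that marks strand, per the labels' protocols. The deposited values are raw read counts, 1 row per Ensembl gene. Tool names in the submitters' processing notes are featureCounts, HTSeq, HISAT2 and STAR, and the builds are hg38 and GRCh38, with no role for any of them; which gene models and strand option were used is not stated. Columns named NC with a number were taken as vector replicates of that number, being the only columns besides those named SETD8, and 0 columns belonged to other samples. All 58735 IDs matched GENCODE release 29, which gave names, positions and exonic lengths.

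After filterByExpr (14370 genes kept, 44365 dropped) and TMM scaling, the groups were compared with edgeR 4.0.16 (quasi-likelihood, robust, no covariates; R 4.3.3), with two-sided p-values adjusted by Benjamini-Hochberg across every gene kept, with 0.05 as the threshold. The SE is the size of the log2 fold change divided by the square root of F, and the 95% interval uses the degrees of freedom of the test. RPKM is CPM per kilobase of joined exons. Paralog ratios were compared by exact permutation over libraries (scipy 1.17.1). Promoters came from RefSeq (GRCh38.p14). Counting error is not the only error in these values. The spread between replicates beyond counting error, as the biological coefficient of variation of the edgeR fit, was 0.116. Reads also carry no molecular identifiers.

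The members and lists were chosen with earlier results of these data known. Named genes were the members, KMT5A, the called genes of each pathway list or else up to 4 by adjusted p, and the 3 genes of most similar profile for each called member. Alternatives were other scalings (DESeq2-type size factors, library totals), other filters (none, or 1 CPM throughout a group), other tests (limma-voom from limma 3.58.1, and DESeq2 1.42.0), a replicate block, lowess offsets on exonic length (span 0.3), the last pair together, and dropping each library. For paralogs they were fitted fold changes, pairing by number, added pseudogenes and dropping each library.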

Additional observations from a re-analysis of the deposited data

How the results depend on the processing

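NF2 and SAV1 kept their direction in all 15 alternatives and their calls in the 9 that used all libraries (log2 fold changes of -0.40 to -0.34 for NF2 and 0.36 to 0.41 for SAV1; highest adjusted p = 0.0324 and 0.0290). With one library left out, the cascade genes called lower numbered 0 to 3 and those called higher 0 to 1, and the other pathway genes called lower 0 to 10 and higher 0 to 2 (edgeR; at an unadjusted p under 0.05 the same fits gave 1 to 3, 1, 7 to 14 and 2 to 4). With no low-count filter 2 cascade genes were called lower. Library totals gave 3 lower and 2 higher pathway genes, the length correction 3 lower, and DESeq2 2 higher. Deviations of same-numbered libraries correlated at -0.064 to 0.025, within the -0.095 to 0.092 over all pairs of a SETD8 and a vector library. With 3 libraries per group this cannot show whether the design was paired. With the replicate block, 1 cascade gene was called lower and 1 higher, and 5 pathway genes lower and 0 higher (2 at an unadjusted p under 0.05); with block and length correction 3 were lower and 0 higher (5 unadjusted), and RASSF1 lost its call in both. The sign turned for LATS1 with length correction (0.039; 0.038 with the block as well) and for WWC1 (0.0030 and 0.0033). Leaving out a library gave -0.13 to 0.023 for LATS1, -0.098 to 0.018 for LATS2, -0.10 to 0.062 for MOB1A and, for the log2 ratio of LATS2 over LATS1, -0.088 to 0.13. The cause was not tested. Each of the 10 genes had at least 334 counts in each library, and the intervals of the fold changes bound what these libraries can show.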

Other observations

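Ratios between partners of the cascade were computed within each library after the values of the genes had been seen, so they are given without a test. SAV1 over the sum of STK3 and STK4 stood at 3.12, 3.14 and 3.21 (RPKM over RPKM) in SETD8 replicates 1, 2 and 3, against 2.69, 2.13 and 1.94 in vector replicates 1, 2 and 3. NF2 over SAV1 stood at 1.17, 1.18 and 1.24 in SETD8 replicates, against 1.94, 2.06 and 2.12 in vector replicates. Since NF2 was called lower and SAV1 higher on the same libraries, the gap in this ratio follows from those calls and is a description only. NF2 over WWC1 was 1.21, 1.33 and 1.31 in SETD8 replicates, against 1.66, 1.61 and 1.42 in vector replicates. The ratio of the MOB1 genes to the LATS genes was 2.46, 2.19 and 2.18 in SETD8 replicates and 2.16, 2.19 and 2.36 in vector replicates, which overlapped.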
